A study of Homo sapiens with 3 samples.

Results

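The genes described here are 33 enzymes, regulators and carriers of cholesterol and fatty acid synthesis, taken by name from a list of sterol enzymes, fatty acid enzymes, SREBP factors and SREBP targets. All 33 were among the 16662 genes of the deposited table, and all 33 passed the expression filter of a mean of at least 1 CPM, as 13879 genes did. CPM is a gene's read count scaled by library size, here with TMM factors. The list was made from gene function and not from the values, but it was proposed with earlier results of these data known.

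RNA was sequenced from H1975, an established human lung adenocarcinoma cell line with a mutant EGFR. Cells were transfected with a control siRNA (siNC) or with siHHLA3-1 or siHHLA3-3, which carry different numbers and target the same gene, HHLA3. Transfection took place at about 70% confluency, followed by 6 h without serum and 24 h in medium with 10% serum, and these times were the same for the 3 samples. The labels name different media for growth and for transfection, give 1 cell line, and do not describe the cultures as replicated. Each group was 1 library with a batch label of its own, so siRNA and batch cannot be told apart. No test between groups was possible with 1 library in each, and every interval below is a 95% interval for counting error only.

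Depth ranged from 26950852 reads (siHHLA3-3) through 32813003 (siNC) to 35069930 (siHHLA3-1). HHLA3 itself stood at 5.99 CPM with siNC, 1.55 CPM with siHHLA3-1 and 0.735 CPM with siHHLA3-3. Although the labels also name the source as lung cancer tissue, 8 of 9 epithelial and lung adenocarcinoma markers were listed, with summed levels of 5325, 5012 and 4168 CPM in the same order, and the lung lineage factor NKX2-1 was among them. SFTPB was not listed. Among markers of other cell types, 2 of 4 for leukocytes were listed (11.0 to 13.3 CPM summed), 1 of 4 for fibroblasts (COL1A1, 10.9 to 24.5 CPM), 1 of 3 for endothelium (CDH5, 3.01 to 19.2 CPM), and none of 3 for hepatocytes or of 3 for adipocytes.

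Cholesterol is built from acetyl-CoA through mevalonate, farnesyl diphosphate, squalene and lanosterol. Fatty acids are built from the same acetyl-CoA through malonyl-CoA and are then elongated and desaturated. The transcription factors SREBP-1 and SREBP-2, encoded by SREBF1 and SREBF2, are held in the endoplasmic reticulum by SCAP and the INSIG proteins when sterols are plentiful. When sterols run low, SCAP carries them to the Golgi, where they are cut free to switch on both branches, SREBP-2 chiefly the sterol genes and SREBP-1 chiefly the fatty acid genes.

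In the control library the 2 branches were expressed at similar totals. Compared per transcript length, the 19 sterol enzymes summed to 1800 TPM and the 8 fatty acid enzymes to 1760 TPM. The fatty acid total rested mainly on the stearoyl-CoA desaturase SCD (779 TPM), the fatty acid synthase FASN (454 TPM) and the ATP citrate lyase ACLY (346 TPM), whereas FADS2 stood at 11.5 TPM. The most abundant sterol enzymes were NSDHL (248 TPM), MSMO1 (191 TPM), PMVK (189 TPM) and SQLE (172 TPM). At the low end stood the sterol reductase TM7SF2, at 2.78 TPM. With siHHLA3-1 the sums were 1749 TPM for the sterol and 1575 TPM for the fatty acid enzymes. With siHHLA3-3 they were 1369 and 1624 TPM, so the lowest sterol sum and the lowest fatty acid sum were found in different libraries.

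**Figure D1:**
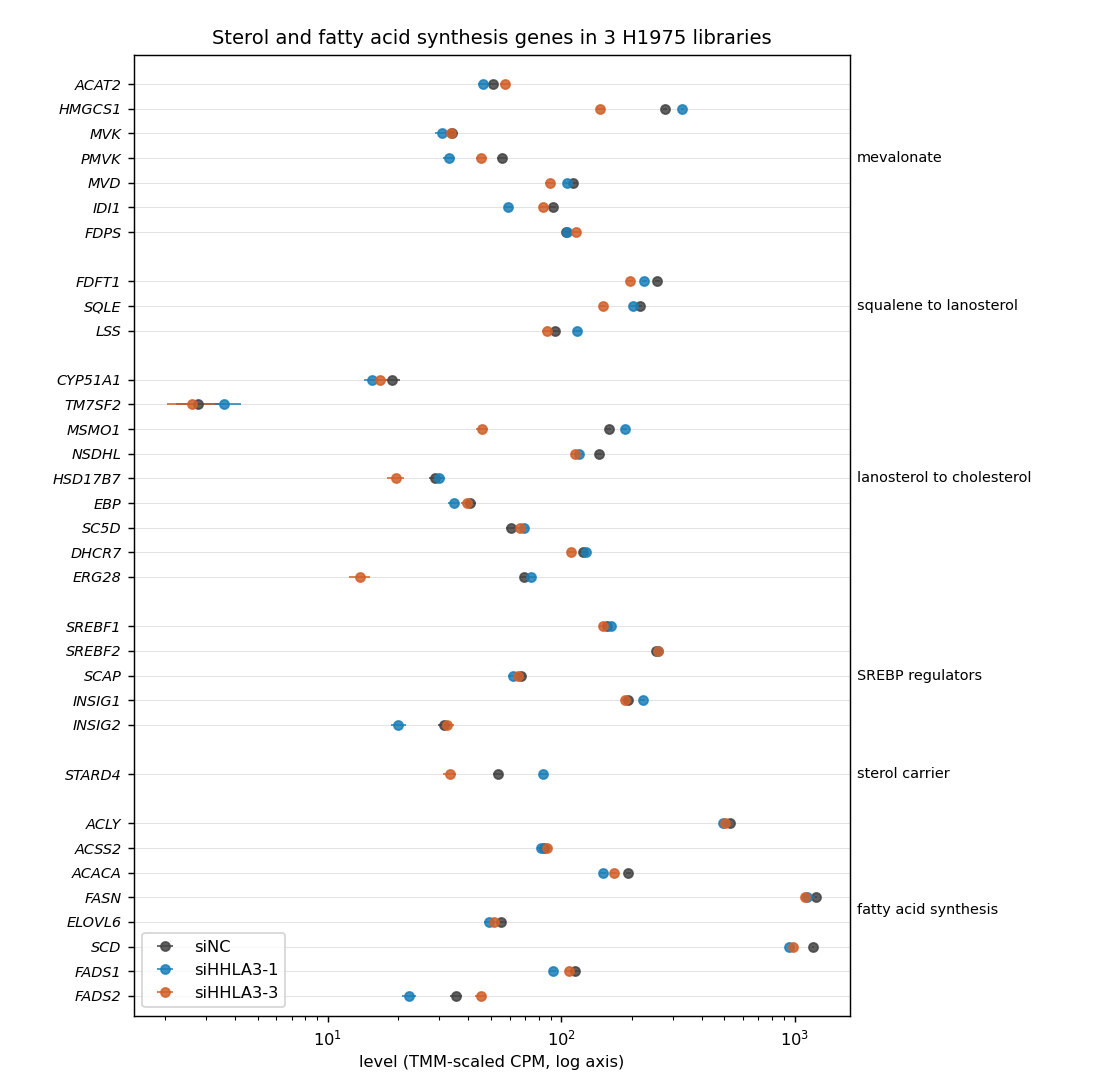
Level of each of the 33 genes in TMM-scaled CPM on a log axis, in the siNC, siHHLA3-1 and siHHLA3-3 libraries (1 each), grouped by step; bars are 95% Poisson intervals, mostly shorter than the points. ERG28 and MSMO1 lie far to the left of the other libraries with siHHLA3-3, at 13.7 and 45.7 CPM.

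The comparison of siHHLA3-3 with siNC asks which genes of the 2 branches differed with that siRNA. The lower genes lay on the sterol side and were few: ERG28 and MSMO1 were more than 2-fold lower, HMGCS1 and STARD4 more than 1.5-fold lower, and the fatty acid enzymes stayed within 1.5-fold of siNC. Ratios are given as log2 of (CPM + 1) over (CPM + 1), with 2-fold as the threshold. Of the 33 genes 2 were at least 2-fold lower, where 1.48% of all 13879 genes were, and 0 were at least 2-fold higher, against 0.807% of all genes. At 1.5-fold, 4 were lower and 0 higher, beside 5.57% and 3.65% of all genes. The shares of all genes differed between the directions too. In GRCh38 coordinates of GENCODE 29 these genes lie at chr14:75649791-75661189 (ERG28, minus strand), chr4:165327623-165343160 (MSMO1, plus), chr5:43289395-43313512 (HMGCS1, minus) and chr5:111496033-111512590 (STARD4, minus).

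ERG28 is a membrane protein that holds together the enzymes removing methyl groups from sterol rings after lanosterol. It stood at 69.4 CPM with siNC (95% interval 66.5 to 72.3), 74.3 CPM with siHHLA3-1 (71.5 to 77.2) and 13.7 CPM with siHHLA3-3 (12.3 to 15.2). The siHHLA3-3 library was thus low and the others were close together. ERG28 was 5.06-fold lower with siHHLA3-3 than with siNC (4.54 to 5.67), a log2 ratio of -2.26. By that ratio it was number 7 from the lowest among 13879 genes.

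MSMO1, the methylsterol monooxygenase that works in the same complex, stood at 160 CPM with siNC (155 to 164), 187 CPM with siHHLA3-1 (182 to 191) and 45.7 CPM with siHHLA3-3 (43.2 to 48.3). It was again low in the siHHLA3-3 library alone, 3.49-fold below siNC (3.28 to 3.72), a log2 ratio of -1.78 and number 24 from the lowest. The other enzymes of the complex are the dehydrogenase NSDHL and the ketoreductase HSD17B7; they are grouped here after their values were seen. In the order siNC, siHHLA3-1, siHHLA3-3, which is kept below, NSDHL had 145, 120 and 114 CPM and was below siNC with both siRNAs. HSD17B7 had 28.8, 30.02 and 19.5 CPM, 1.47-fold lower with siHHLA3-3 (1.32 to 1.64) and not apart from siNC beyond counting error with siHHLA3-1. A copy of HSD17B7, the pseudogene HSD17B7P2, was listed with 141, 177 and 93 reads, so reads of this gene may be shared with it.

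The 3' untranslated regions (UTRs) of the members were searched for a 7-base sequence, because siRNAs can lower transcripts other than their target through matches to their bases 2 to 8. What the siRNAs' own sequences are was not known here. Among 16324 7-base sequences scanned in the 3' UTRs of 10490 genes, CAGAATG was the one most associated with lower ratios with siHHLA3-1 and GTGAACT with siHHLA3-3. They were chosen from these same ratios, so the lower ratios of their carriers are partly built in. GTGAACT was found in the 3' UTR of 11.9% of the searched genes and CAGAATG in 17.5%. Of the 33 members 4 carried GTGAACT (12.1%), namely CYP51A1, MSMO1, ERG28 and SCD. The part of these matches in any ratio was not tested.

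The places that carry GTGAACT in ERG28 and MSMO1, the members lowest with siHHLA3-3, and in CYP51A1 and SCD, which carry it at smaller ratios, are shown as 21 bases of GENCODE 29 transcript sequence with the match in capitals.
ERG28: gtggtgggaacatGTGAACTa
MSMO1: atcttgaaactttGTGAACTg
CYP51A1: aaatgtgagatcaGTGAACTc
SCD: ccctggagtcaggGTGAACTg
In GRCh38 coordinates (the submitters' notes name hg19) they lie at chr14:75651180-75651200 (minus strand), chr4:165342998-165343018 (plus), chr7:92112441-92112461 (minus) and chr10:100363081-100363101 (plus). The ERG28 site begins 368 bases into a 3' UTR of 1764 bases, and the MSMO1 site 1065 bases into 1214. Neither gene shares exonic bases with another annotated gene.

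With siHHLA3-3, ERG28 and MSMO1 were at least 2-fold lower, whereas the other carriers CYP51A1 and SCD had log2 ratios of -0.16 and -0.27. The 4 carriers had a median of -1.03, a midpoint between SCD and MSMO1 that no carrier lies near. The 29 members without the match had a median of -0.089, with 0 at least 2-fold lower. Over all genes with an annotated 3' UTR above the filter, 124 of 1343 carriers (9.23%) and 74 of 10440 other genes (0.709%) were at least 2-fold lower. Because GTGAACT was chosen from these same ratios, both contrasts are partly built in. With siHHLA3-1, in contrast, ERG28 and MSMO1 stood at log2 ratios of 0.10 and 0.22 to siNC.

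**Figure D2:**
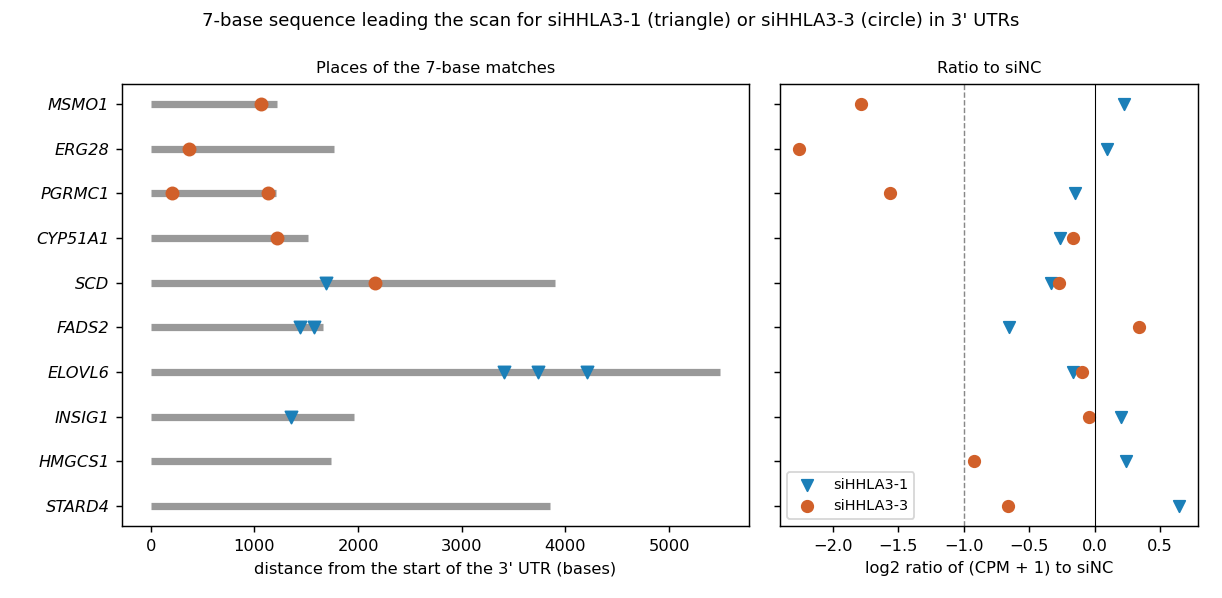
Left, 3' UTRs drawn to length in bases from their start, with the places of GTGAACT (circles) and CAGAATG (triangles); right, log2 ratio to siNC of the same genes with siHHLA3-3 (circles) and siHHLA3-1 (triangles), the dashed line marking 2-fold lower. MSMO1, ERG28 and PGRMC1 carry circles and lie left of the line with siHHLA3-3. CYP51A1 and SCD also carry circles but lie right of it, at log2 ratios of -0.16 and -0.27. HMGCS1 and STARD4 carry neither mark and have log2 ratios of -0.92 and -0.66 with siHHLA3-3. PGRMC1 is not a member but comes from the further lists, and GTGAACT was chosen from these same ratios.

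HMGCS1 and STARD4 were lower with siHHLA3-3 and higher with siHHLA3-1, and their 3' UTRs carry neither 7-base sequence. HMGCS1, the synthase that makes HMG-CoA for the mevalonate route, stood at 279 CPM with siNC (273 to 285), 330 CPM with siHHLA3-1 (324 to 336) and 147 CPM with siHHLA3-3 (143 to 152). The 3 intervals do not overlap, and siNC lies between the siRNAs. Against siNC, HMGCS1 was higher with siHHLA3-1 by 1.18-fold (1.15 to 1.22) and lower with siHHLA3-3 by 1.90-fold (1.83 to 1.97), just short of the 2-fold threshold.

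STARD4, a soluble carrier that moves sterols between membranes, stood at 53.3 CPM with siNC (50.8 to 55.9), 83.8 CPM with siHHLA3-1 (80.8 to 86.8) and 33.3 CPM with siHHLA3-3 (31.2 to 35.5). Its libraries kept the order of HMGCS1, as did those of other members such as LSS and INSIG1. The folds to siNC were 1.57 upwards with siHHLA3-1 (1.48 to 1.67) and 1.60 downwards with siHHLA3-3 (1.48 to 1.74). HMGCS1 and STARD4 share 703 and 124 exonic bases with opposite-strand genes that the table does not list.

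Further along the sterol branch, squalene synthase FDFT1 and squalene epoxidase SQLE were lowest with siHHLA3-3. FDFT1 had 258, 227 and 197 CPM, and SQLE 217, 202 and 151 CPM. SQLE was thus 1.44-fold lower with siHHLA3-3 (1.38 to 1.49) and 1.07-fold lower with siHHLA3-1 (1.04 to 1.11). LSS, which closes squalene epoxide into lanosterol, went the other way with siHHLA3-1, at 94.0, 117 and 86.5 CPM. The decarboxylase MVD stood at 113, 106 and 89.1 CPM.

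Not all sterol enzymes were lower with siHHLA3-3. The thiolase ACAT2 (51.2, 46.3 and 57.2 CPM), the farnesyl diphosphate synthase FDPS (105, 106 and 116 CPM) and the desaturase SC5D (60.8, 69.2 and 66.4 CPM) were above siNC with it. ACAT2 shares exonic bases with TCP1, FDPS with RUSC1-AS1, LSS with AP001469.1 and MVK with MMAB, on the opposite strand. The use of strand in counting is not known, so the reads of such pairs cannot be told apart. DHCR7, the last enzyme of one route to cholesterol, stood at 124, 128 and 111 CPM. The mevalonate kinase MVK (log2 ratio -0.013) and the isomerase EBP (-0.045) did not differ from siNC beyond counting error with siHHLA3-3. Nor did TM7SF2, on 89, 127 and 71 reads. CYP51A1, which takes a methyl group off lanosterol, stood at 18.8, 15.5 and 16.7 CPM, with a fold interval for siHHLA3-3 that includes 1, and its copy CYP51A1P2 was listed with 49, 40 and 32 reads. In all, counting intervals of the fold to siNC lay below 1 for 12 of the 19 sterol enzymes with siHHLA3-3 and above 1 for 3. At this depth such intervals are common, with 30.6% of all 13879 genes below 1 and 27.6% above, and 40.7% and 33.9% of the 6594 genes with a mean of 30 CPM or more.

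In the comparison of siHHLA3-1 with siNC no member reached 2-fold (0 higher and 0 lower), beside 0.973% of all genes for higher and 0.382% for lower at 2-fold. At 1.5-fold, 1 member was higher and 4 were lower, beside 5.03% and 3.34% of all genes. The higher one was STARD4. The lower ones were PMVK and IDI1 of the mevalonate steps, the SREBP anchor INSIG2 and the fatty acid desaturase FADS2.

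PMVK, the phosphomevalonate kinase, stood at 55.5 CPM with siNC (52.9 to 58.1), 33 CPM with siHHLA3-1 (31.1 to 35) and 45.5 CPM with siHHLA3-3 (43.0 to 48.1). Both siRNA libraries were below siNC, 1.68-fold (1.56 to 1.81) and 1.22-fold (1.13 to 1.31). IDI1, the isomerase of isopentenyl diphosphate, stood at 92.0 CPM with siNC (88.7 to 95.4), 59.1 CPM with siHHLA3-1 (56.5 to 61.6) and 83.6 CPM with siHHLA3-3 (80.2 to 87.1), and was thus lower mainly with siHHLA3-1. Of its exonic bases 173 are shared with IDI2-AS1 on the opposite strand.

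INSIG2 stood at 31.5 CPM with siNC (29.5 to 33.5), 20.1 CPM with siHHLA3-1 (18.6 to 21.6) and 32.5 CPM with siHHLA3-3 (30.4 to 34.7). It was 1.57-fold lower with siHHLA3-1 (1.42 to 1.73), whereas siHHLA3-3 and siNC overlapped. Its relative INSIG1, itself an SREBP target, stood at 194, 223 and 188 CPM, 1.15-fold higher with siHHLA3-1 (1.11 to 1.19). The 2 INSIG genes therefore lay on opposite sides of siNC in that library.

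The SREBP genes themselves differed little. SREBF2 stood at 253 CPM with siNC (248 to 259), 259 CPM with siHHLA3-1 (254 to 265) and 259 CPM with siHHLA3-3 (253 to 265), with overlapping intervals. SREBF1 stood at 158, 163 and 150 CPM, and the escort SCAP at 67.1, 61.9 and 65.1 CPM. The 3 genes had log2 ratios to siNC between -0.11 and 0.05 with either siRNA. mRNA levels do not measure the cleavage by which SREBPs are activated.

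**Figure D3:**
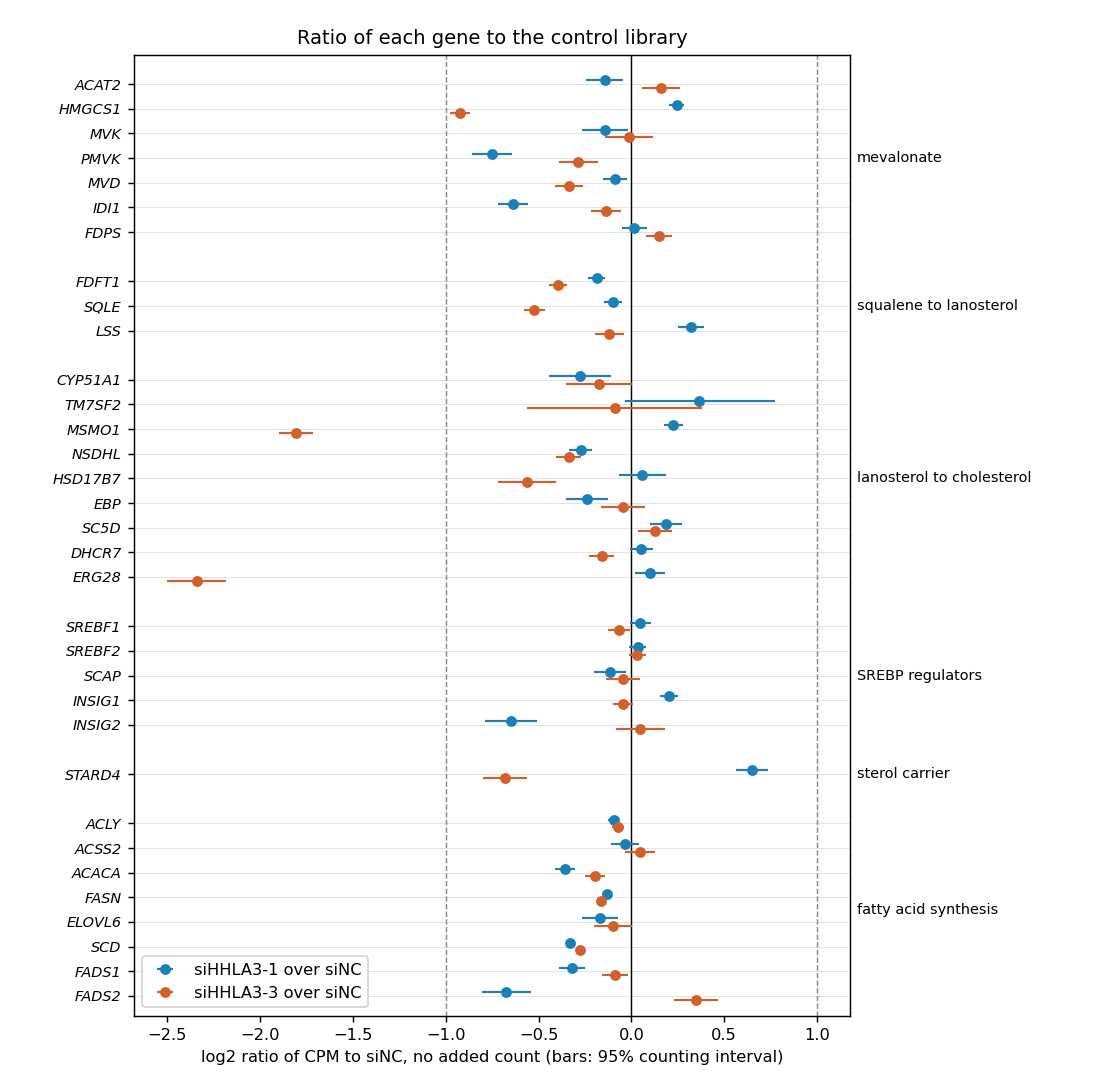
Log2 ratio of CPM to siNC for each of the 33 genes with siHHLA3-1 and siHHLA3-3, without an added count, with 95% counting intervals; dashed lines mark 2-fold. ERG28 and MSMO1 lie beyond the line with siHHLA3-3, 5.06-fold and 3.49-fold below siNC, and the SREBP genes lie near 0.

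In the fatty acid branch all 8 enzymes were below siNC with siHHLA3-1, mostly by small amounts, except that ACSS2 lay between -0.04 and 0.02 (log2) over the scalings tried and so on either side. With siHHLA3-3, 6 of 8 were below siNC. Of all genes 51.8% were below siNC with siHHLA3-1 and 51.5% with siHHLA3-3. The counts behind them are high, and counting intervals below 1 were found for 7 of 8 with siHHLA3-1 and 5 of 8 with siHHLA3-3. With siHHLA3-1, 32.6% of all genes had an interval below 1 and 28.7% above 1. Among genes of 30 CPM or more, as all 8 enzymes are, 46.1% lay below 1 with siHHLA3-1 and 40.7% with siHHLA3-3.

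ACLY, which makes cytosolic acetyl-CoA from citrate, had 527, 493 and 501 CPM. ACACA, the acetyl-CoA carboxylase, stood at 193, 151 and 169 CPM, and FASN at 1237, 1130 and 1105 CPM. ACACA was 1.28-fold lower with siHHLA3-1 (1.24 to 1.33) and 1.15-fold lower with siHHLA3-3 (1.10 to 1.19). SCD stood at 1194, 950 and 987 CPM, below siNC in both siRNA libraries, and its copy SCDP1 was listed with 50, 43 and 25 reads. The elongase ELOVL6 stood at 55.2, 49.1 and 51.6 CPM, and ACSS2, which makes acetyl-CoA from acetate, at 84.0, 81.9 and 86.6 CPM. Apart from FADS2, no enzyme of the branch was 1.5-fold from siNC in either comparison.

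The desaturases of polyunsaturated fatty acids, FADS1 and FADS2, lie side by side on chromosome 11 and share 142 exonic bases on opposite strands. FADS2 also shares exonic bases with FEN1, a listed gene on the same strand, so some reads may belong to either gene. FADS2 stood at 35.4 CPM with siNC (33.4 to 37.5), 22.2 CPM with siHHLA3-1 (20.7 to 23.8) and 45.1 CPM with siHHLA3-3 (42.6 to 47.7). It was low with siHHLA3-1 and high with siHHLA3-3, 1.60-fold below siNC (1.46 to 1.75) and 1.27-fold above it (1.17 to 1.38), and the intervals of the libraries do not overlap. FADS1 stood at 115, 92.0 and 108 CPM and was lowest in the same library.

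The 3' UTR of FADS2 carries CAGAATG, the sequence that led the scan for siHHLA3-1, at 2 places, which are shown because FADS2 had the lowest ratio of the 4 members with it.
FADS2 a: ggcaccaacaactCAGAATGg
FADS2 b: acccccgcagaggCAGAATGa
They lie at chr11:61867113-61867133 and chr11:61867249-61867269 on the plus strand of GRCh38. The other carriers were ELOVL6 with 3 places, SCD with 1 and INSIG1 with 1. Their log2 ratios with siHHLA3-1 were -0.17, -0.33 and 0.20, and that of FADS2 was -0.65. The median of the 4 carriers was -0.25, against -0.096 for the 29 members without it. PMVK, IDI1 and INSIG2 do not carry CAGAATG in the 3' UTRs searched. Over all genes, 1.36% of 1979 carriers and 0.204% of 9804 others were at least 2-fold lower with siHHLA3-1. CAGAATG was chosen from these same ratios, so these contrasts are partly built in too.

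Set side by side, the branches had these medians. With siHHLA3-1 the median log2 ratio was -0.088 for the sterol and -0.24 for the fatty acid enzymes, beside -0.013 for all genes. Without the carriers of either 7-base sequence, which leaves out ELOVL6, SCD and FADS2, the fatty acid median was -0.13 and the sterol median -0.094. CAGAATG was chosen for the low ratios of its carriers with siHHLA3-1, so this shift is partly built in. The part of the matches in the branch difference was not tested. With siHHLA3-3 the median log2 ratio was -0.16 for the sterol and -0.093 for the fatty acid enzymes, beside -0.0099 for all genes. The order of the branches thus differed between the siRNAs, which share the siNC library, and neither difference was tested. The spread was wider in the sterol branch with siHHLA3-3, from -2.26 to 0.16, than in the fatty acid branch, from -0.27 to 0.34.

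**Figure D4:**
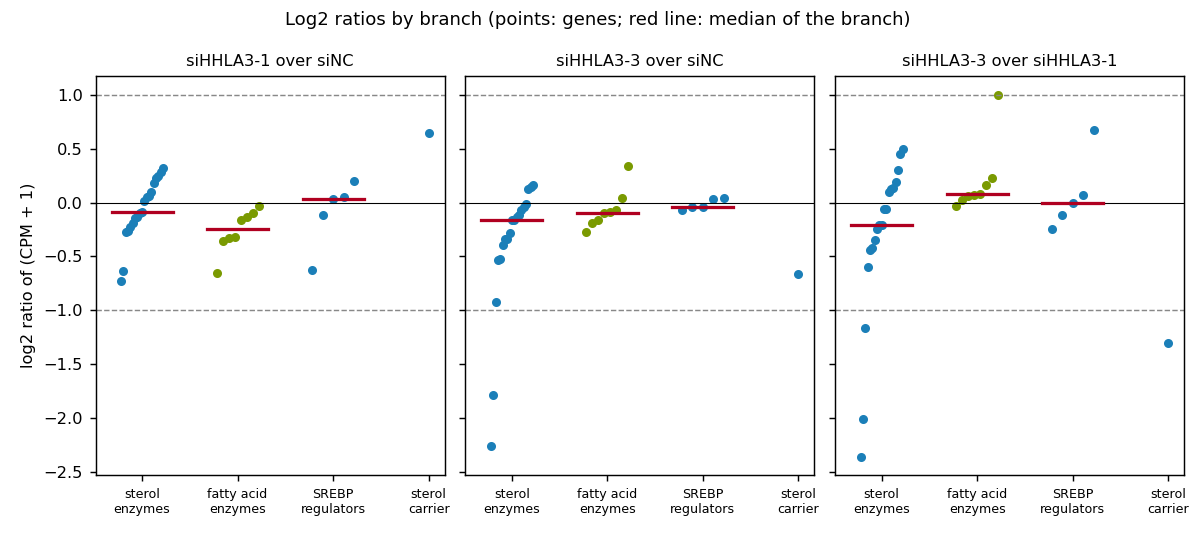
Log2 ratios of (CPM + 1) for the genes of each branch in the 3 comparisons, with a red line at the median where a branch has more than 1 gene and dashed lines at 2-fold. The sterol medians are -0.088, -0.16 and -0.21 from left to right and the fatty acid medians -0.24, -0.093 and 0.074.

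The comparison of siHHLA3-3 with siHHLA3-1 does not use the control library. HMGCS1, MSMO1, ERG28 and STARD4 were at least 2-fold lower with siHHLA3-3, 4 of 33 members where 2.12% of all genes were. None was at least 2-fold higher, beside 0.757% of all genes. At 1.5-fold 5 members were lower and 2 higher, beside 7.82% and 4.4% of all genes. The folds were 5.42 for ERG28 (4.86 to 6.06), 4.09 for MSMO1 (3.85 to 4.34), 2.51 for STARD4 (2.33 to 2.71) and 2.24 for HMGCS1 (2.17 to 2.33).

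Those higher with siHHLA3-3 were FADS2, 2.03-fold (1.86 to 2.23) and at 0.99 on the log2 scale with the added count, and INSIG2, 1.62-fold (1.47 to 1.79). HSD17B7 was the fifth lower member, 1.54-fold (1.38 to 1.71). The median was -0.21 for the sterol enzymes, with 12 of 19 below 0, and 0.074 for the fatty acid enzymes, with 1 of 8 below 0, FASN at -0.033. The median of all genes was 0.0029, with 49.6% below 0. Neither branch was tested against the other, and the members of a branch are not replicates.

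The promoters of the members, from RefSeq on GRCh38.p14, were searched because SREBPs bind a sterol regulatory element and work together with the factor NF-Y. The stretch searched runs from 250 bases before to 50 after each annotated start, and 29 of the 33 members were matched; ACAT2, FDFT1, SQLE and FASN were not. A gene with several annotated starts was counted when any of its stretches held the match. The letters TCACNCCAC, on either strand, were found in 1 of the 29, SREBF2, and in 1.43% of 9989 expressed genes. The NF-Y box CCAAT, on either strand, was found in 22 of 29 members (75.9%) and in 43.1% of the expressed genes. A match is not a binding site, and these letters being absent from this window says nothing of the factor.

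HMGCS1 and STARD4 shared the order of the libraries, which was also found in other members such as LSS, DHCR7 and INSIG1. The NF-Y boxes of HMGCS1 and STARD4 and the element of SREBF2 are shown with their matches in capitals, along the strand of each gene.
HMGCS1 a: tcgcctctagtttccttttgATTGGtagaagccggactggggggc
HMGCS1 b: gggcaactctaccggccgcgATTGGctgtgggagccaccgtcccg
STARD4 a: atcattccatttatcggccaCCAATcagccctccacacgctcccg
STARD4 b: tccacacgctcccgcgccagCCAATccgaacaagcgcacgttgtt
SREBF2: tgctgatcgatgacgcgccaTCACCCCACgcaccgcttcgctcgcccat
The stretches lie at chr5:43313543-43313587 and chr5:43313488-43313532 for HMGCS1, chr5:111512672-111512716 and chr5:111512641-111512685 for STARD4, all on the minus strand, and chr22:41832952-41833000 on the plus strand for SREBF2. In HMGCS1 the box is read as ATTGG, on the strand opposite to the gene, and in STARD4 as CCAAT. MSMO1 has 4 such boxes and ERG28 has 3, so the box was shared by all 4 members that were 2-fold apart between the siRNAs, and also by members such as SCD that were not.

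Other genes of these pathways were taken from 6 lists made from their function, with 64 of 70 genes above the filter. Of the 64, 0 were at least 2-fold higher or lower with siHHLA3-1, and with siHHLA3-3 0 were higher and 1 lower. Of all genes, 0.973% were higher and 0.382% lower with siHHLA3-1, and 0.807% and 1.48% with siHHLA3-3. The medians of the 64 were -0.083 and -0.030. The gene below 2-fold was PGRMC1, a heme-binding protein that associates with cytochrome P450 enzymes of sterol synthesis. PGRMC1 stood at 100.7 CPM with siNC (97.3 to 104), 90.5 CPM with siHHLA3-1 (87.4 to 93.7) and 33.4 CPM with siHHLA3-3 (31.3 to 35.6), or 3.02-fold lower with siHHLA3-3 (2.80 to 3.25). Its 3' UTR carries GTGAACT at 2 places, and 11.9% of the genes searched in the scan carry it. PGRMC1 is the only gene of these lists for which the match is reported, so the lists give no comparison. GTGAACT was chosen from these same ratios, and the part of the match in the ratio of PGRMC1 was not tested.

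In the lists the gene furthest from siNC is named for each siRNA. Among genes that process SREBPs or degrade sterol-regulated proteins, these were ERLIN2 with siHHLA3-1 (log2 ratio -0.95) and SPRING1 with siHHLA3-3 (-0.71). In the list of sterol uptake and transport they were the lipoprotein receptor LRP8 (-0.59) and OSBPL1A (-0.71). The acyl-CoA synthetase ACSL5 was furthest with both, at 12.7, 20.5 and 6.98 CPM, the same order of libraries as STARD4. Other genes of the lists, such as ABCA1 and LIPA, had that order too. The isoprenoid list had PDSS1 (-0.57) and GGPS1 (-0.47). LXR factors and targets, which respond to oxysterols, had a median of 0.30 with siHHLA3-1, with 5 of 6 above 0, and of 0.039 with siHHLA3-3, with 3 of 6 above 0. Of all genes 48.2% and 48.5% were above 0. In that list NR1H2 (0.62) and ABCA1 (-0.30) were furthest. Among alternative sterol enzymes, the lamin B receptor LBR, which also has sterol reductase activity, was furthest with siHHLA3-1 (-0.34).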

How the data were processed

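Per the labels' protocols, each library was made from 1 ug of total RNA by an Illumina protocol. Per the submitters' processing notes, the build was hg19 and HISAT2, HISAT, TopHat2 and Bowtie2 were used. The counting program, annotation and strand setting are not given in the sources used here. Whole-number counts, CPM, TPM and FPKM were deposited for each library. The deposited counts are unnormalised reads per gene, the deposited CPM are those counts divided by library size, and the deposited TPM and FPKM are also scaled by length.

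Library totals were recovered from the deposited counts and CPM, and 0.305% to 0.355% of them fall on unlisted genes. Counts were scaled with TMM factors (0.978, 1.01 and 1.01; edgeR 4.0.16, R 4.3.3). Log2 ratios used a pseudocount of 1 CPM, which understates differences of low genes, and folds have none. Levels carry exact 95% Poisson intervals and folds exact 95% binomial intervals, which cover counting error only. With 1 library per group there is no p-value for these comparisons.

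All 33 members are named, with HHLA3 and, of 6 further lists, the gene furthest from siNC with each siRNA. Members and lists were chosen with earlier results of these data known. The 3' UTR searched was the longest annotated in GENCODE 29 for each gene. The scan was limited to a mean of 5 CPM or more and to sequences found in at least 30 such genes, ranked by a t statistic used for ranking only. The alternatives were DESeq2 1.42.0 size factors, library totals, a pseudocount of 0.1, no filter or 5 CPM, deposited TPM or FPKM, a 1.5-fold threshold, omission of carriers, and edgeR's quasi-likelihood test or DESeq2 with both siRNAs as 2 samples. The ratios and these fits were also run on simulated data, with genes changed alike in both siRNA libraries at a chosen spread. In the real data the siRNAs differ and the spread between replicates is unknown. The simulated run therefore does not show how well the fits work on these data. Other steps used Python 3.11.15, numpy 2.4.6, scipy 1.17.1, pandas 2.3.3 and matplotlib 3.10.9.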

Additional observations from a re-analysis of the deposited data

Results flagged for a closer look

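In 4 members the siRNA libraries lay on opposite sides of siNC beyond counting error and at least 2-fold apart on the scale with an added count of 1 CPM: HMGCS1, MSMO1, ERG28 and STARD4 were above siNC with siHHLA3-1 and below it with siHHLA3-3. The log2 ratios of siHHLA3-3 to siHHLA3-1 were -1.16 for HMGCS1, -2.01 for MSMO1, -2.36 for ERG28 and -1.30 for STARD4. FADS2 ran the other way, below siNC with siHHLA3-1 and above it with siHHLA3-3, and the siRNAs were 2.03-fold apart, or 0.99 (log2) with the added count, just under that threshold. LSS and ACAT2 also lay on opposite sides of siNC beyond counting error, but less than 2-fold apart. The share of all genes that meet both conditions was not taken. Of all genes, 2.12% were at least 2-fold lower with siHHLA3-3 than with siHHLA3-1 and 0.757% at least 2-fold higher. With 1 library per siRNA these differences were not tested.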

How the results depend on the processing

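Of 79 alternative values, 70 lay within 1.5 times the reported count or within the counting interval of the genes at the median. Some of the 70 could not move, since all 33 members pass the filter and dropping it leaves their values unchanged. Values outside these limits are given first. With a 1.5-fold threshold the members counted were 5 for siHHLA3-1 against siNC, 4 for siHHLA3-3 against siNC and 7 between the siRNAs. Without the genes that carry either 7-base sequence, 0 members were 2-fold from siNC with siHHLA3-3 and 2 between the siRNAs, since ERG28 and MSMO1 are then left out. The sterol median between the siRNAs was -0.13 without the carriers and -0.13 with a minimum of 5 CPM, in both cases because fewer genes enter it. With both siRNAs as 2 samples against siNC, 0 of 33 members were called by edgeR's quasi-likelihood test and 0 by DESeq2, at a Benjamini-Hochberg adjusted p under 0.05, and 0 by either at an unadjusted p under 0.05. The fit, with 1 residual degree of freedom, assumes that the lone siNC library varies like the others. It also counts the difference between the siRNAs as error. The fit could thus hardly call members on opposite sides of siNC, such as HMGCS1 and STARD4. It therefore does not show that members were unchanged. It called 1 and 5 of 13879 genes. The fatty acid median with siHHLA3-1 was -0.13 without the carriers, beside -0.24 with them, and was counted among the 70 because the limits are wide. That shift is partly built in, since CAGAATG was chosen from these ratios. A pseudocount of 0.1 added FADS2 to the members 2-fold apart between the siRNAs. The sign of the ratio to siNC changed with the scaling for ACSS2 with siHHLA3-1 and for MVK, EBP, SCAP and INSIG1 with siHHLA3-3, all within 0.05 of 0. TM7SF2, with at most 127 reads, is the member that depth limits most. No paired analysis was possible because each group holds 1 library.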
